A study of Mus musculus with 9 samples.

Results

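The miR-200 family was followed in the livers of 9 C57BL/6 mice by small RNA sequencing. The family comprised every row listed for miR-200a, miR-200b, miR-200c, miR-141 and miR-429, with both arms of a hairpin where both were listed. This gave 9 of the 1140 rows of the count table, 5 from the miR-200b/miR-200a/miR-429 cluster and 4 from the miR-200c/miR-141 cluster. By the study's methods the mice were 8-week-old males when obtained. Control mice (n = 3) received normal saline by intraperitoneal injection for 8 weeks, and TAA mice (n = 3) received thioacetamide (TAA), a hepatotoxin that produces fibrosis, by the same route and for the same time. Recovery mice (n = 3) received the 8-week TAA course and were then left for 8 additional weeks without it. They were therefore 8 weeks older than the control mice when killed, so recovery and age cannot be told apart.

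The miR-200 family is a textbook guardian of the epithelial state. Its 3p arms repress the mRNAs of the transcription factors Zeb1 and Zeb2, which in turn repress the family and E-cadherin, so that epithelial cells keep the family high and mesenchymal cells keep it low. In liver it is known mainly from the cholangiocytes that line the bile ducts, while hepatocytes carry little of it. The table held miRNAs alone, so the biliary label of the family could not be checked against the keratins or transcription factors that define cholangiocytes. Whole liver was sequenced, and a change in the number of cells that carry a miRNA cannot be told apart from a change in its amount per cell.

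The 5 hairpins lie in 2 clusters (positions on GRCm38, called mm10 in the submitters' processing notes). Mir200b, Mir200a and Mir429 occupy 1846 bases of chromosome 4 (156053905 to 156055750, minus strand), within introns of Ttll10 on the same strand, and Mir429 also overlaps an exon of the processed transcript Gm13648. Mir200c and Mir141 occupy 477 bases of chromosome 6 (124717914 to 124718390, minus strand), inside the antisense RNA gene Gm15884 and between Phb2 and Ptpn6. Mir141 also overlaps an exon of the gene Gm29008 on the same strand. Mature sequences were taken from RefSeq (GRCm38.p6), which held all 9 rows. The 5 abundant 3p arms are shown because they fall into 2 seed groups that cross the clusters. Capitals mark the seed, bases 2 to 8 from the 5′ end, which selects the target mRNAs.
miR-200b-3p: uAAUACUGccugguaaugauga
miR-200c-3p: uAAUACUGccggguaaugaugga
miR-429-3p: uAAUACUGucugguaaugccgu
miR-200a-3p: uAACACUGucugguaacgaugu
miR-141-3p: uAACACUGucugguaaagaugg

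miR-200b, miR-200c and miR-429 shared the seed AAUACUG, and miR-200a and miR-141 shared the seed AACACUG. Among the 935 listed rows with a RefSeq sequence, no other miRNA carried either seed. Between the seed groups miR-200a-3p and miR-200b-3p differed by 4 substitutions (C4U, U9C, C17U and U22A, positions from the 5′ end, miR-200a-3p first). Within the seed groups the members of different clusters were closer, since miR-200b-3p and miR-200c-3p differed by U11G and A22G and 1 base in length, and miR-141-3p and miR-200a-3p by A17C and G22U. How the authors assigned a read that matched such a pair was not stated. The counts of miR-200c-3p and miR-141-3p, far lower than those of their relatives, are therefore the more exposed to misassigned reads, which was not tested. No family row was a near copy of another row of the table, with a smallest difference, summed over the 9 samples, of 11.8% of the counts of both rows (miR-200b-5p and miR-190b-5p).

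The opposite, 5p arms are cut from the same hairpins. The hairpin of Mir200a is shown because the balance of its arms is reported below, with the 5p and then the 3p arm in capitals.
Mir200a: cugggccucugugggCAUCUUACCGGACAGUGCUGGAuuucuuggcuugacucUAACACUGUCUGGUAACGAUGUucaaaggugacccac

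Libraries held 9071847 to 12983378 counts, and all 9 samples differed from the others of their group by more than sampling noise. Because a few miRNAs dominated the libraries, levels are given as CPM, counts relative to library size with TMM scaling, which assumes that most miRNAs do not change. The TMM factors of the TAA libraries (1.43 to 1.63) stood above those of the control (0.739 to 0.792) and recovery libraries (0.766 to 0.887). Had library totals been used in place of TMM, the log2 fold changes of all rows would have moved at the median by 1.12 for TAA vs control, -0.86 for recovery vs TAA and 0.18 for recovery vs control. TAA replicate 3 stood apart in muscle miRNAs. This library held 4511 CPM of miR-1a-3p, a miRNA of heart and skeletal muscle, against 7.80 to 47.4 CPM in the other 8 samples. It also held 63.3 CPM of miR-206-3p, a skeletal muscle miRNA, against at most 3.08 CPM elsewhere. Results that rest on this library are given with and without it.

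The family was a small part of the liver miRNAs and was raised in TAA livers. Its share of the counts was 0.0439% to 0.0592% in control livers, 0.56% to 0.815% in TAA livers and 0.0968% to 0.128% in recovery livers. The groups did not overlap. The totals behind these shares hold miR-122-5p and miR-122b-3p at nearly equal levels (266777 and 266750 CPM in the control group). The TAA group had 72644 and 72633 CPM of them. The same reads were thus probably counted in both rows, and the shares are of table counts, not of reads. On the TMM scale the summed family was 701 ± 97.3 CPM (SD, n = 3) in the control group, 4303 ± 1217 CPM in the TAA group and 1375 ± 98.1 CPM in the recovery group. Each pair of groups was separated completely (exact two-sided permutation p = 0.1 for all 3 pairs), and 0.1 is the smallest p that 3 against 3 samples can give. The makeup of the family was uneven. miR-200b-3p and miR-200a-3p supplied 47.9% ± 1.71 and 44.2% ± 1.52 of its counts in the control group, and no other row exceeded 4.04% in any sample.

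**Figure D1:**
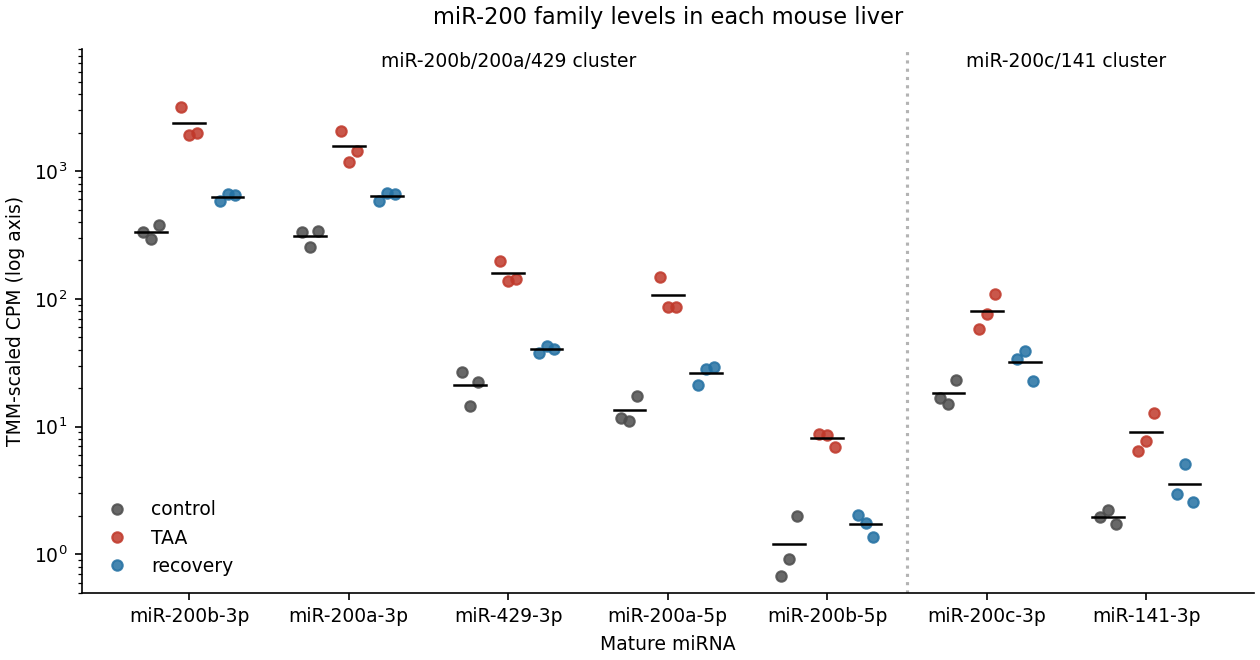
TMM-scaled CPM (log axis) of the 7 tested miR-200 family rows in each of the 9 livers, with points for mice and bars for group means. TAA points lie above control and recovery points for all 7 rows, and the 3 recovery points lie above the control points for 5 of them.

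The comparison of TAA with control asked how the family differed in the fibrotic liver. A row was called when its FDR was under 0.05 and its level differed at least 2-fold in edgeR's quasi-likelihood test, with Benjamini-Hochberg adjustment over all rows tested. All FDR values come from this test, and standard errors (SE) are those of its log2 fold changes. All 7 family rows that passed the filter on low counts were higher in the TAA group. miR-200b-5p met this filter only through the TAA group (7, 7 and 15 counts in the control replicates), which favoured its direction in advance. The counts over the 7 rows and their median include it. Over all 420 rows tested, 25% were called higher and 16.7% lower, and by the FDR alone 31.9% passed as higher. The TAA and control values did not overlap for any of the 7, where 66.7% of all rows had no overlap. The median log2 fold change was 2.70 over the 7 rows and 0.11 over all rows. The remaining rows, miR-141-5p and miR-200c-5p, were not tested. miR-141-5p had 0 to 6 counts in a sample, and miR-200c-5p had 0 counts in 7 samples and 2 and 3 counts in recovery replicate 2 and TAA replicate 2. A count of 0 allows up to 3 counts, so no fold change is given for miR-200c-5p.

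mmu-miR-200b-3p, the most abundant member of the TAA livers and a repressor of Zeb1 and Zeb2, was measured at 335, 294 and 376 CPM in control replicates 1 to 3. In TAA replicates 1 to 3 it reached 3195, 1921 and 2002 CPM, so that the lowest TAA value was several-fold above the highest control value. Its log2 fold change was 2.73 (SE 0.20, FDR 0.000104). mmu-miR-200a-3p, its neighbour on the same transcript and of the other seed, was measured at 333, 256 and 341 CPM in the control replicates and at 2078, 1189 and 1431 CPM in the TAA replicates (log2 fold change 2.24, SE 0.21, FDR 0.00016). Both rows were highest in TAA replicate 1. mmu-miR-429-3p, the last hairpin of the cluster, had 26.9, 14.5 and 22.2 CPM in the control replicates. It had 197, 138 and 142 CPM in the TAA replicates (log2 fold change 2.81, SE 0.25, FDR 0.000139). All 3 abundant rows ranked the TAA mice alike, with replicate 1 highest and replicate 2 lowest.

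The 5p arms of the cluster rose with the 3p arms. mmu-miR-200a-5p was measured at 11.7, 11.1 and 17.4 CPM in the control replicates and at 150, 85.9 and 85.8 CPM in the TAA replicates. Its log2 fold change of 2.90 (SE 0.27, FDR 0.00016) was the largest of the family. mmu-miR-200b-5p was scarce, with 7, 7 and 15 counts in the control replicates and 142, 128 and 104 counts in the TAA replicates (log2 fold change 2.70, SE 0.38, FDR 0.00102). At these counts the control level of miR-200b-5p is the least certain of the 7 rows.

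The miR-200c/miR-141 cluster, which is encoded on another chromosome, also rose, from a far lower level. mmu-miR-200c-3p had 16.7, 15.2 and 23.2 CPM in the control replicates and 57.8, 75.6 and 109 CPM in the TAA replicates (log2 fold change 2.06, SE 0.29, FDR 0.000997). mmu-miR-141-3p had 1.94, 2.24 and 1.73 CPM in the control replicates and 6.48, 7.76 and 12.9 CPM in the TAA replicates (log2 fold change 2.11, SE 0.35, FDR 0.00172). Both rows were lowest in TAA replicate 1 and highest in TAA replicate 3, the library with muscle miRNAs. Without TAA replicate 3 their log2 fold changes were 1.81 and 1.78, and all 7 family rows were still called.

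**Figure D2:**
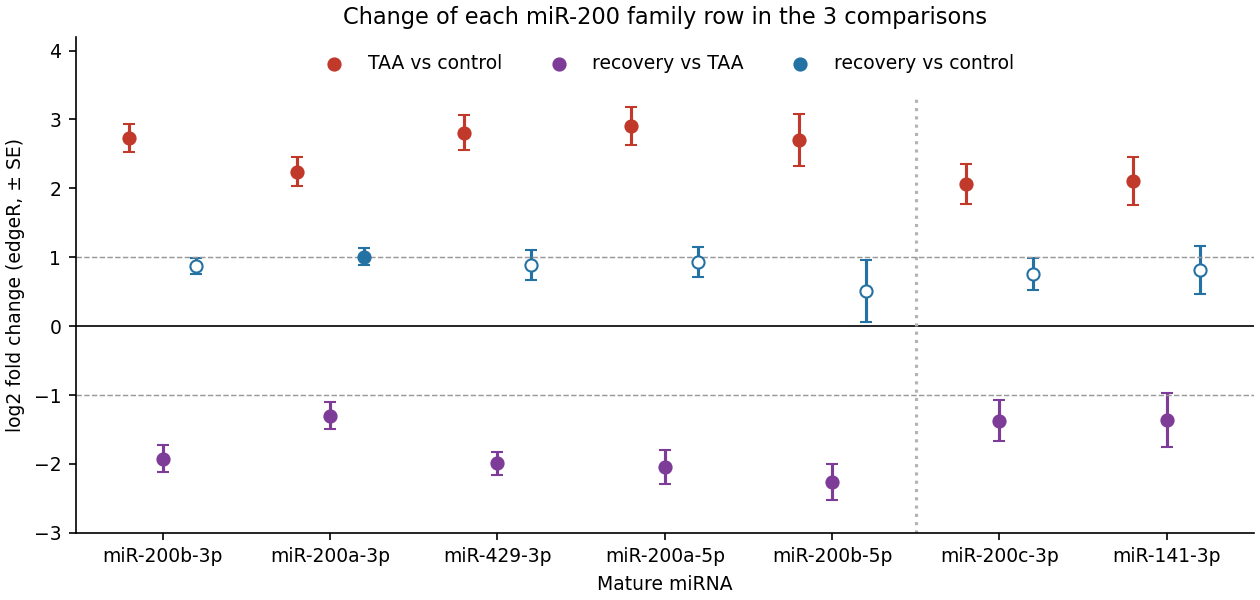
log2 fold changes from edgeR (error bars, SE) of the 7 tested family rows in the 3 comparisons, with filled points for called rows, open points for rows not called, and dashed lines at a fold change of 2. The dotted line divides the clusters. Points are filled for every row in TAA vs control (red) and recovery vs TAA (purple), whereas in recovery vs control (blue) miR-200a-3p alone is filled, at 1.01.

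Recovery was then compared with TAA to ask whether the family fell after TAA was withdrawn. All 7 rows tested were called lower in the recovery group, with a median log2 fold change of -1.92, and none overlapped between the groups. Over all 440 rows tested 14.5% were called lower and 10.2% higher, 20.7% passed as lower by the FDR alone, 53.4% had no overlap, and the median was -0.12. Since TAA samples enter both this comparison and that of TAA with control, the directions are not independent of each other. miR-200b-3p was measured at 580.5, 657 and 654 CPM in recovery replicates 1 to 3 (log2 fold change -1.92, SE 0.20, FDR 0.00048). miR-200a-3p was measured at 585, 671 and 668 CPM (log2 fold change -1.30, SE 0.19, FDR 0.00205), so that it fell less than miR-200b-3p and the levels of both rows met. miR-429-3p, with 37.7, 42.98 and 40.4 CPM, fell by 1.99 on the log2 scale (SE 0.16, FDR 0.000283).

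Among the 5p arms, miR-200b-5p had 19, 19 and 15 counts in the recovery replicates and the largest decrease of the family (log2 fold change -2.26, SE 0.26, FDR 0.000643). miR-200a-5p, with 21.2, 28.01 and 29.04 CPM, fell by 2.05 on the log2 scale (SE 0.24, FDR 0.00074). In the other cluster, miR-200c-3p had 33.99, 38.9 and 22.7 CPM in the recovery replicates (log2 fold change -1.37, SE 0.30, FDR 0.00935), with its lowest recovery value in replicate 3. miR-141-3p had 2.99, 5.14 and 2.56 CPM (log2 fold change -1.36, SE 0.39, FDR 0.0274). The call of miR-141-3p was the least secure, since it was lost without TAA replicate 3 (log2 fold change -0.99, FDR 0.0733), without recovery replicate 1 (-1.18, FDR 0.113) and without recovery replicate 3 (-1.12, FDR 0.102). The other 6 rows were called in all 6 of these left-out fits.

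The residual in the recovery group was tested against control. All 7 log2 fold changes were above 0, from 0.51 to 1.01, with a median of 0.88 against -0.03 over all 391 rows tested. miR-200b-5p, at 0.51, met the filter on low counts here only through the recovery group, which favoured its direction. Only miR-200a-3p was called higher, with a log2 fold change of 1.01 (SE 0.13, FDR 0.00026), beside a background of 10.5% of rows called higher. By the FDR alone 4 of the 7 rows passed, against 12% of all rows in the same direction. These were miR-200a-3p, miR-200b-3p (0.88, SE 0.12, FDR 0.000325), miR-200a-5p (0.93, SE 0.22, FDR 0.0164) and miR-429-3p (0.88, SE 0.22, FDR 0.0192), all from the chromosome 4 cluster. miR-200c-3p (0.76, SE 0.23, FDR 0.0576), miR-141-3p (0.81, SE 0.35, FDR 0.19) and miR-200b-5p (0.51, SE 0.44, FDR 0.606) did not pass, and the size of these estimates beside their SE leaves a residual of the same order possible.

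The recovery and control values did not overlap for 5 of the 7 rows, where 27.4% of all rows tested had no overlap. The highest control value of miR-200b-3p was 376 CPM and its lowest recovery value 580.5 CPM. For miR-200c-3p the ranges met, as recovery replicate 3 (22.7 CPM) lay below control replicate 3 (23.2 CPM). The call itself depended on how close the values lay to a fold change of 2. Under library totals 4 rows were called (miR-200a-3p, miR-200b-3p, miR-200a-5p and miR-429-3p). With control replicate 1, control replicate 3 or recovery replicate 1 left out 2 rows were called, and with control replicate 2, recovery replicate 2 or recovery replicate 3 left out edgeR called 0 rows, while 5, 5 and 6 rows had an unadjusted p under 0.05. In these left-out fits the 7 log2 fold changes stayed above 0, and miR-200a-3p, at 0.86 to 1.09, kept an FDR of at most 0.00147 where its call was lost.

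As a share of the log2 rise under TAA, the residual was 45.8% for miR-200a-3p, 36.9% for miR-200c-3p, 35.4% for miR-141-3p, 32.9% for miR-200b-3p and miR-429-3p, 32.4% for miR-200a-5p and 18.6% for miR-200b-5p. The value of miR-200b-5p is unstable, since its log2 fold change in recovery vs control was 0.19 without control replicate 1 and 1.04 without control replicate 3. On the linear CPM scale the residuals were smaller, from 7.46% of the rise for miR-200b-5p to 26.4% for miR-200a-3p. The 98 rows outside the family that were called higher in the TAA group had a median residual of 42.2% (interquartile range 11.4% to 91.6%). The residual of the family therefore lay within the range of the other raised miRNAs.

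The change of the 2 clusters was compared by the ratio of their summed counts within each library, which needs no scaling. In control replicates 1 to 3 the miR-200b/miR-200a/miR-429 rows held 37.7, 33.1 and 30.2 counts for each count of the miR-200c/miR-141 rows. The ratio was 87.3, 39.8 and 29.97 in the TAA replicates and 33.1, 31.6 and 55.1 in the recovery replicates. TAA replicate 1 and recovery replicate 3 were high, and the other 7 samples lay between 29.97 and 39.8. The difference of the mean log2 ratio was 0.49 (SE 0.47) in TAA vs control, -0.29 (SE 0.53) in recovery vs TAA and 0.21 (SE 0.27) in recovery vs control, with exact permutation p-values of 0.5, 0.7 and 0.6. An exact permutation test over the 3 groups gave p = 0.593. A difference between the clusters was thus not detectable with 3 mice a group, although the SE values leave room for 1 of the size of the point estimates. Without TAA replicate 1 the difference in TAA vs control was 0.05, and that in recovery vs TAA changed sign to 0.16. Without recovery replicate 3 the difference in recovery vs control changed sign to -0.05, and without TAA replicate 3 the difference in TAA vs control was 0.82.

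Within the TAA group the clusters did not rank the mice alike. The chromosome 4 cluster summed to 5628, 3343 and 3668 CPM in TAA replicates 1 to 3, whereas the chromosome 6 cluster summed to 64.4, 83.9 and 122 CPM. The mouse with the most of the chromosome 4 cluster thus had the least of the other. Within the chromosome 6 cluster the rows kept their balance, and miR-141-3p was 0.0747 to 0.148 of miR-200c-3p in all 9 samples (exact permutation p = 0.996 over the 3 groups).

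The seed groups, in contrast, shifted. Counts of the 3 members with the seed AAUACUG were divided by those of the 2 members with the seed AACACUG. This ratio was 1.13, 1.25 and 1.23 in the control replicates, 1.65, 1.78 and 1.56 in the TAA replicates and 1.11, 1.09 and 1.07 in the recovery replicates. The 3 groups did not overlap. The exact permutation p over the 3 groups was 0.00357, the smallest this test can give with 9 samples, and 0.025 after Benjamini-Hochberg adjustment over the 14 ratios computed. Those 14 include the nearly identical ratio of miR-200b-3p to miR-200a-3p given below, and its tied p lowers the adjusted value. The mean log2 ratio was higher by 0.47 (SE 0.073) in TAA vs control and lower in recovery, with differences of -0.61 (SE 0.058) vs TAA and -0.14 (SE 0.049) vs control.

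The shift lay between neighbours of 1 cluster, as miR-200b-3p and miR-200a-3p supplied most counts of either seed. This ratio was chosen after the values were seen and is nearly the seed ratio itself, so it describes that shift and adds no support to it. miR-200b-3p over miR-200a-3p was 1.004, 1.15 and 1.103 in the control replicates and 1.54, 1.62 and 1.40 in the TAA replicates. It was 0.993, 0.979 and 0.98 in the recovery replicates, where all 3 mice held slightly more miR-200a-3p than miR-200b-3p. Pairwise differences of the log2 ratio were 0.48 (SE 0.084) in TAA vs control and -0.62 (SE 0.061) in recovery vs TAA. miR-429-3p kept its place beside miR-200b-3p, at 0.0493 to 0.0805 of it in all samples (exact permutation p = 0.743). Beside miR-200a-3p it was 0.0567 to 0.0808 in control, 0.0946 to 0.116 in TAA and 0.0605 to 0.0645 in recovery livers (exact permutation p = 0.025, adjusted p = 0.08). Of the 5 rows of the cluster tested, miR-200a-3p had the smallest log2 fold change in TAA vs control. For the seed contrast in the other cluster the ratio was miR-141-3p over miR-200c-3p, with the seeds in the reverse order. A parallel shift would thus carry the opposite sign. The log2 difference of this ratio in TAA vs control was -0.0072 (SE 0.29). This SE is too wide to exclude a shift of the size of 0.48. In recovery vs TAA the difference was -0.0022 (SE 0.18), an SE small beside the size of the -0.62 of miR-200b-3p over miR-200a-3p. A shift of that size was thus not seen in that comparison.

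**Figure D3:**
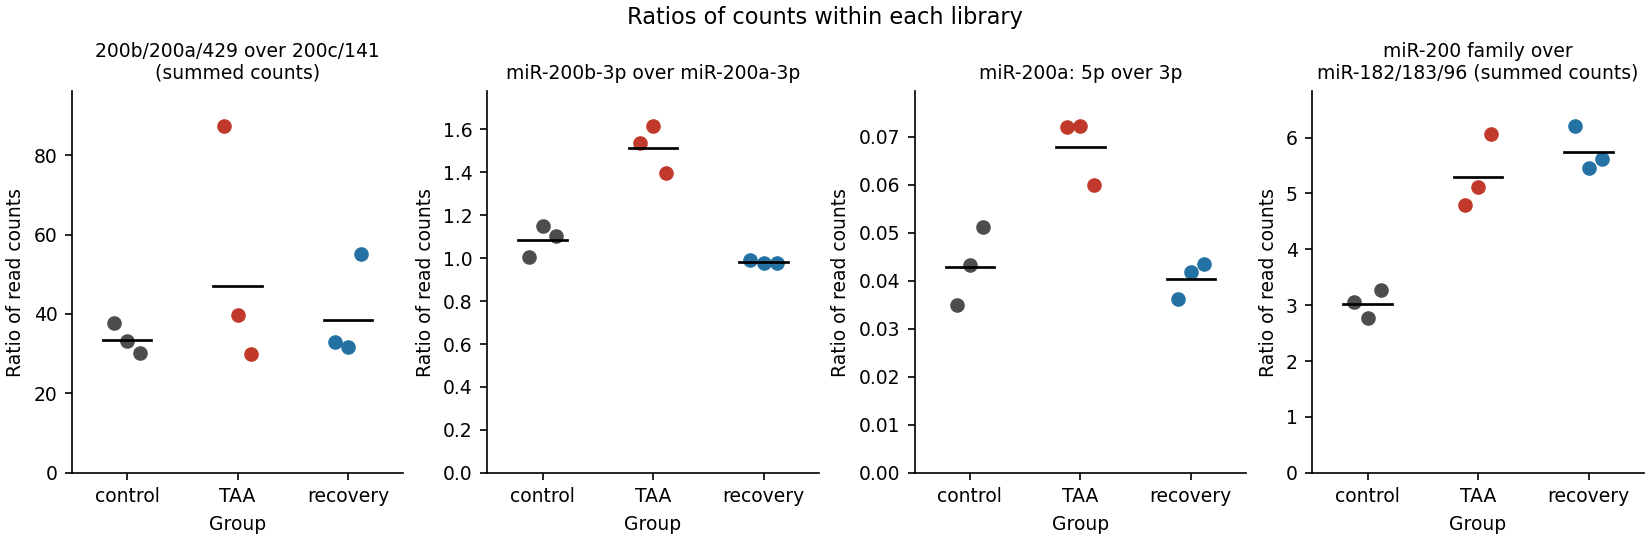
Ratios of read counts within each library in the 3 groups, with points for mice and bars for geometric means: the 2 clusters, miR-200b-3p over miR-200a-3p, the 5p over the 3p arm of miR-200a, and the whole family over miR-182/miR-183/miR-96. The TAA points stand alone in the panels of miR-200b-3p over miR-200a-3p (1.40 to 1.62) and of the miR-200a arms, whereas the cluster ratio overlaps between groups and the last panel separates control from the other groups.

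The arms of each hairpin were compared in the same way. The 5p arm made up 3.38%, 4.15% and 4.86% of the miR-200a counts in control replicates 1 to 3, 6.72%, 6.74% and 5.66% in the TAA replicates and 3.49%, 4.01% and 4.17% in the recovery replicates. The TAA values lay above all others. The exact permutation p over the 3 groups was 0.0286, which became 0.114 after adjustment over the 4 hairpins with both arms listed, so the arm shift did not pass. Since the 3p arm is the denominator here, the smaller rise of miR-200a-3p enters this ratio too. For miR-200b the 5p arm made up 0.203% to 0.528% of the counts with no order of the groups (exact permutation p = 0.696). The 5p arms of miR-200c and miR-141 were too scarce to compare, with at most 3 and 6 counts. Between the 5p arms, miR-200b-5p was 0.0473 to 0.115 of miR-200a-5p, with overlapping groups (exact permutation p = 0.625), although the low counts of miR-200b-5p limit this comparison.

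Lists of markers of other cell types were counted in TAA vs control, where 25% of all 420 rows tested were called higher and 16.7% lower. With so few rows in each list, a count near these shares does not set the list apart. Of 7 other epithelial miRNAs, 3 were called higher and 1 lower in the TAA group. The raised rows were the 3 members of the miR-182/miR-183/miR-96 cluster, miR-182-5p (log2 fold change 1.70), miR-183-5p (1.85) and miR-96-5p (1.71), and the lowered row was miR-203-3p (-1.59), a miRNA of keratinocytes. The list sum overlapped between the groups (1215 to 1545, 1056 to 1693 and 1336 to 1393 CPM in control, TAA and recovery livers). All 5 hepatocyte miRNAs of the list, among them miR-122-5p (-1.96) and miR-192-5p (-1.58), were called lower, and their sum ran from 516348 to 534955 CPM in control, 149318 to 178166 CPM in TAA and 427053 to 508883 CPM in recovery livers. Of 7 mesenchymal and stellate miRNAs 4 were called higher, namely miR-199a-3p (1.66), miR-199a-5p (1.44), miR-199b-5p (2.60) and miR-214-3p (2.003). The rest of this list, miR-143-3p (-0.02), miR-145a-5p (-0.25) and miR-10b-5p (-0.50), was not called. The list sum, set mainly by miR-143-3p, overlapped between the groups (25645 to 31168, 18073 to 39676 and 22033 to 35944 CPM in control, TAA and recovery). Of 5 leukocyte miRNAs 2 were called higher, miR-155-5p (1.65) and miR-223-3p (1.15), with list sums of 190 to 211, 274 to 319 and 146 to 222 CPM in the same order of groups. Of 4 red cell miRNAs miR-451a was called lower (-1.71), with list sums of 814 to 1362, 212 to 483 and 342 to 644 CPM. Both endothelial miRNAs, miR-126a-3p (-0.55, FDR 0.00371) and miR-126a-5p (-0.81, FDR 0.00107), changed less than 2-fold and were not called. miR-9-5p was called higher (1.03), while miR-124-3p, the defining neuronal miRNA, stayed at or below 0.135 CPM. The 3 pancreas acinar miRNAs summed to at most 1.07 CPM in any sample. The part of these cell types in the change of the family was not tested.

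The same lists were counted in the recovery group, where 14.5% of all 440 rows tested were called lower and 10.2% higher in recovery vs TAA. In recovery vs TAA, 4 of the 7 other epithelial rows were called lower (the 3 rows of the miR-182/miR-183/miR-96 cluster and miR-205-5p, at -1.78) and miR-203-3p was called higher (1.47). Of the 5 hepatocyte rows 4 were called higher, and the 4 mesenchymal and stellate rows that had risen under TAA were called lower, as was miR-223-3p (-1.11) of the leukocyte list. miR-206-3p was also called lower (-5.74), a value that rests on TAA replicate 3. In recovery vs control 2 rows of all lists were called, both lower, miR-205-5p (-2.04, FDR 0.00297) and miR-451a (-1.05, FDR 0.0192), beside a background of 0.767% of rows called lower. miR-31-5p, another epithelial row, singled out after its values were seen, had a residual of the size of the family's, with a log2 fold change of 0.72 (FDR 0.027, under 2-fold and not called). It had 36.02 to 38.5 CPM in control, 67.5 to 83.6 CPM in TAA and 49.9 to 83.5 CPM in recovery livers. The part of these cell types in the residual of the family was not tested either.

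The family was also set beside miR-182/miR-183/miR-96, a cluster of epithelial and sensory cells, chosen for this after the values were seen. In recovery vs TAA its 3 rows had log2 fold changes of -1.76, -1.82 and -1.91 for miR-182-5p, miR-183-5p and miR-96-5p. In recovery vs control their log2 fold changes were 0.01, 0.10 and -0.13 (FDR 0.986, 0.78 and 0.78). The within-library ratio of the family to this cluster was 3.06, 2.77 and 3.27 in the control replicates, 4.80, 5.12 and 6.06 in the TAA replicates and 6.21, 5.45 and 5.61 in the recovery replicates. Control samples were lower than all others, and the TAA and recovery samples overlapped. The mean log2 ratio was higher by 0.81 (SE 0.12) in TAA vs control and by 0.92 (SE 0.090) in recovery vs control, and the exact permutation p over the 3 groups was 0.0143. In recovery vs TAA the difference was 0.12 (SE 0.12, exact permutation p = 0.4), so the ratio differed from control in the TAA group already. The adjusted p of 0.0667 over the 14 ratios did not pass. The other rows of the epithelial list went other ways, as miR-31-5p and miR-205-5p show.

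**Figure D4:**
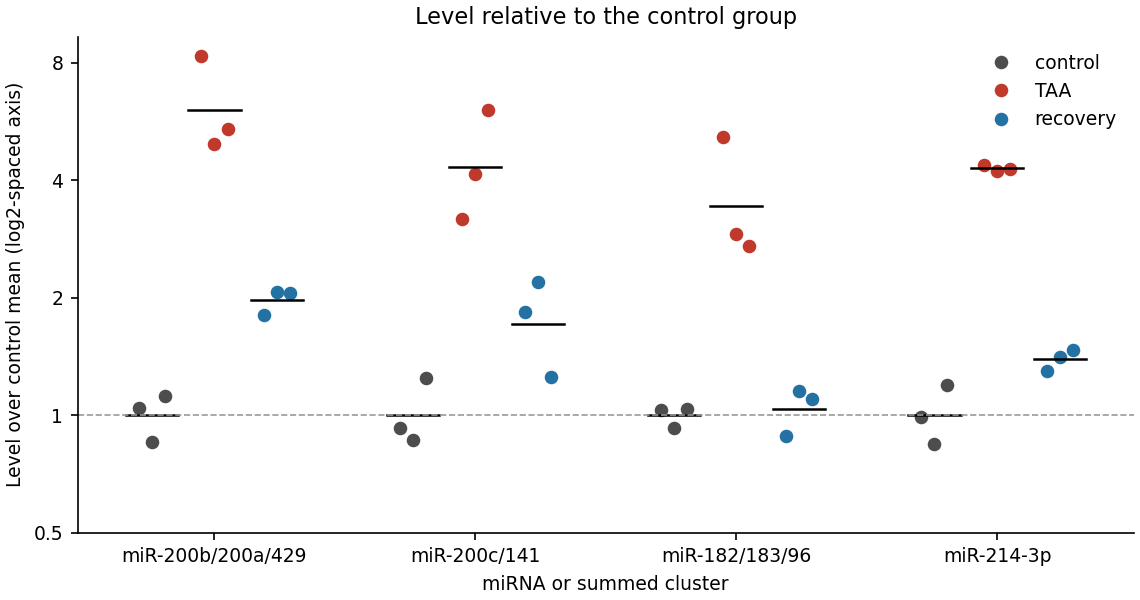
Level of the 2 family clusters, of miR-182/miR-183/miR-96 and of miR-214-3p in each liver, as TMM-scaled CPM divided by the geometric mean of the control group (log2-spaced axis; bars, geometric means). In the recovery group the chromosome 4 cluster stands at 1.81 to 2.07 times control, the chromosome 6 cluster at 1.25 to 2.19, miR-182/miR-183/miR-96 at 0.885 to 1.15 and miR-214-3p at 1.298 to 1.47.

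The rows outside the family with the most similar course were sought among the 221 rows with a mean of at least 10 CPM, by the SD over the 9 samples of the log2 ratio of their counts to the family counts. They were miR-199b-5p (SD 0.25), miR-214-5p (0.28), miR-214-3p (0.31), miR-181d-5p (0.35) and miR-34c-5p (0.40), against a median SD of 1.24 over all candidates. Of these, miR-199b-5p and the miR-214 arms are known from hepatic stellate cells, the collagen-producing cells of the liver, and miR-34c-5p as a target of p53. Of the other rows of the mesenchymal and stellate list, given above, miR-199a-3p and miR-199a-5p were also called higher in the TAA group. The rest, miR-143-3p, miR-145a-5p and miR-10b-5p, were not higher. miR-199b-5p had 6.71, 3.56 and 6.12 CPM in the control replicates, 53.5, 21.4 and 32.4 CPM in the TAA replicates and 9.83, 11.4 and 8.70 CPM in the recovery replicates. It was thus highest in TAA replicate 1, as were the abundant family members. miR-214-3p was nearly level across the TAA mice, at 68.0, 65.3 and 66.2 CPM, and stood at 20.1 to 22.8 CPM in the recovery group against 13.1 to 18.5 CPM in the control group.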

How the data were processed

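Total RNA of the 9 livers was extracted with TRIzol, and small RNA libraries (NEBNext kit) were sequenced as single-end reads. Reads were filtered with the authors' scripts, mapped to mm10 and assigned to mature miRNAs of miRBase (release 22.1) with Bowtie (1.3.0). The deposited table held a raw read count per mature miRNA and sample and a TPM value, which the authors made by dividing the count by its column sum (largest difference 4.96e-05 from the count share on the same scale). Depth was 9071847 to 12983378 counts, and intervals from it would cover counting error only. Samples were grouped by their titles, each from a different mouse by the study's text.

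Counts were tested in pairs of groups with edgeR (4.0.16, R 4.3.3) after filterByExpr (minimum count 10) and TMM scaling. A call needed an FDR under 0.05 and a difference of 2-fold or more. The study used DESeq2, run here as an alternative (1.42.0) beside limma (3.58.1) on log2(TPM + 1), other scalings, filters and left-out samples. Ratios of counts within a library (pseudocount 0.5) were tested by exact two-sided permutation of samples. CPM values use TMM factors over all 9 samples, and the SE of a log2 fold change was taken as |log2 fold change| over the root of F. All family rows were named. Members of the marker lists were counted. The rule set was to name rows that were called and rows of lists with at most 6 rows tested. Some such rows of the hepatocyte, leukocyte, red cell, pancreas acinar and muscle lists were counted but not named. miR-31-5p, miR-143-3p, miR-145a-5p and miR-10b-5p were named after their values were seen. The 5 most similar rows were named by their SD. The members, lists and tests were chosen with earlier results of these data known, and no adjustment over the family alone is given. Hairpin positions were identical in RefSeq and GENCODE M21 for all 5 hairpins.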

Additional observations from a re-analysis of the deposited data

How the results depend on the processing

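All 7 tested family rows were called for both TAA vs control and recovery vs TAA under library totals, DESeq2 size factors, DESeq2, limma, no filter, the FDR alone, a fit of all 9 samples and the TMM factors computed without the family (added after seeing the data). A mean of at least 10 CPM left 5 rows, all called. In recovery vs control 1 row was called, but 4 under library totals, limma and the FDR alone, and 0 by edgeR with no filter on low counts (6 at an unadjusted p under 0.05), where the log2 fold change of miR-200a-3p was 0.98. With replicates left out in turn, the rows called ranged from 6 to 7 in recovery vs TAA and from 0 to 2 in recovery vs control (at an unadjusted p under 0.05, 5 or 6 where 0 were called), and stayed at 7 in TAA vs control.

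The cluster difference ranged from 0.05 to 0.82 in TAA vs control, from -0.61 to 0.16 in recovery vs TAA (reversed to 0.16 without TAA replicate 1) and from -0.05 to 0.35 in recovery vs control (reversed to -0.049 without recovery replicate 3). The exact p of the miR-200a arms ranged from 0.0107 to 0.0643, and that of the miR-200c arms from 0.0214 to 0.457, with 0.0464 at a pseudocount of 1, where it rests on 5p counts of at most 3. The seed ratio and miR-200b-3p over miR-200a-3p kept exact p-values of at most 0.00714, and the family over miR-182/miR-183/miR-96 of at most 0.0286. Nothing in the labels pairs samples of the same replicate number, and their deviations from the group means correlated from -0.24 to 0.24. When replicate number entered as a block, 7, 7 and 1 family rows were called in the 3 comparisons, as without it. Depth limits miR-200b-5p, miR-141 and miR-200c-5p.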
